A study of Mus musculus with 9 samples.

Results

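Long intergenic noncoding RNAs (lincRNAs) are transcripts from between protein-coding genes that carry no long reading frame. The 153 described here are the genes that GENCODE M21 (mouse build GRCm38) types as lincRNA, that lie on autosomes and that reached a mean of at least 1 CPM (count scaled to the column sum) in 1 of the groups or both. They are 153 of 43432 genes in the table, of which 2777 were lincRNA genes, and 796 autosomal lincRNA genes had any count. H19 was above the limit but was left out by the rule, with the other well-known imprinted noncoding RNAs, and 6 more lincRNAs above the limit lie on X or Y. All 153 were among the 13685 genes tested.

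RNA was sequenced from regulatory T cells (Tregs), the suppressive CD4 T cells defined by the factor Foxp3, sorted as CD62L-high cells from C57BL/6 mice. All cultures were activated with beads carrying anti-CD3 and anti-CD28, grown with 2000 U/ml interleukin-2 and harvested on day 4. All mice carried Foxp3-Cre-GFP, a Cre recombinase active where Foxp3 is expressed, and the reporter R26-LSL-RFP. The 4 Ezh2-deficient libraries were Ezh2-fl/fl, WT replicates 2 to 5 were Ezh2-+/+, and WT replicate 1 was Ezh2-fl/+, so 1 of the 5 WT libraries carried 1 floxed allele. Deletion by this Cre can begin only once a cell has switched on Foxp3. The design text calls the libraries of a group biological replicates.

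Ezh2 is the enzyme of Polycomb repressive complex 2, which methylates a lysine of histone H3 and holds genes silent, often from promoters rich in CG dinucleotides. LincRNAs act in several ways: some build nuclear bodies, some are processed to release small nucleolar RNAs (snoRNAs) or microRNAs from their transcript, some act on a neighbouring gene on the same chromosome, and for most no function is known. Their transcripts are usually less abundant and more cell-type restricted than messenger RNAs. In T cells the best known are hosts of the microRNAs miR-155, miR-17-92 and miR-142, which shape activation and survival.

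The microRNAs carried by these lincRNAs are shown because they are the part of the host transcript with a known molecular role. On their own strand, 9 of the 153 lincRNAs hold 31 mature microRNAs listed by RefSeq (GRCm38.p6). Only some are printed here, from hosts discussed below, and those of 4833445I07Rik, also discussed, are left out. Printed sequences run 5′ to 3′ with the seed, bases 2 to 8, in capitals. The first is in Mir155hg, the next in A430106G13Rik, then come 6 of Mir17hg, the pair of Mir142hg and 3 of 6720427I07Rik.
mmu-miR-155-5p: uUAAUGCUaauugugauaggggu
mmu-miR-181b-5p: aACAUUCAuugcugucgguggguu
mmu-miR-17-5p: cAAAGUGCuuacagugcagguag
mmu-miR-20a-5p: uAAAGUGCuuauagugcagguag
mmu-miR-18a-5p: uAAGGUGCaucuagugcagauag
mmu-miR-19a-3p: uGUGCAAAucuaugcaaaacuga
mmu-miR-19b-3p: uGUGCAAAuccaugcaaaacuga
mmu-miR-92a-3p: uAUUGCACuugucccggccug
mmu-miR-142a-5p: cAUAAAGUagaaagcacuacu
mmu-miR-142a-3p: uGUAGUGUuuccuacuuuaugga
mmu-let-7a-5p: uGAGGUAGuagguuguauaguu
mmu-let-7d-5p: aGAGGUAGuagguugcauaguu
mmu-let-7f-5p: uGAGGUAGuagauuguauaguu
The seed AAAGUGC was shared by miR-17-5p and miR-20a-5p, GUGCAAA by miR-19a-3p and miR-19b-3p, and GAGGUAG by the 3 let-7 microRNAs. Mature microRNAs were not measured by these libraries, which were made from polyadenylated RNA.

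For the lincRNAs that moved, promoter sequence is shown for those with the largest rises and for the fallers with the smallest adjusted p, where a RefSeq start lay at the GENCODE start (RefSeq, GRCm38.p6, 250 bases before to 50 bases after the start, 5′ to 3′ on the gene's strand). The windows are chr19:60144425-60144724 (+) for E330013P04Rik, chr16:30008417-30008716 (+) for 4632428C04Rik, chr5:136918896-136919195 (+) for 4933404O12Rik and chr19:53464747-53465046 (-) for Mirt1. Capitals mark each CG dinucleotide.
E330013P04Rik: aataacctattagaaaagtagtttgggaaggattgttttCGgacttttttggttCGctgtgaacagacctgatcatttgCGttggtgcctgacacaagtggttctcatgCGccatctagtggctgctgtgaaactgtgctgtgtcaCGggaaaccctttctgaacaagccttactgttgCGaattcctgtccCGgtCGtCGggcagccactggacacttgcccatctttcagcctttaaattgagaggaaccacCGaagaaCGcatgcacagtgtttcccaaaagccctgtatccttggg
4632428C04Rik: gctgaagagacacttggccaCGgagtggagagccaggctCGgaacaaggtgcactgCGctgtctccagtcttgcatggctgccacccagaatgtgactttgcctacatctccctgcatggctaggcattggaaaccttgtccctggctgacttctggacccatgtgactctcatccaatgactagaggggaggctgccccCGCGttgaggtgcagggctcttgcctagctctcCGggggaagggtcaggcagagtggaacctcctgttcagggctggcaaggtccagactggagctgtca
4933404O12Rik: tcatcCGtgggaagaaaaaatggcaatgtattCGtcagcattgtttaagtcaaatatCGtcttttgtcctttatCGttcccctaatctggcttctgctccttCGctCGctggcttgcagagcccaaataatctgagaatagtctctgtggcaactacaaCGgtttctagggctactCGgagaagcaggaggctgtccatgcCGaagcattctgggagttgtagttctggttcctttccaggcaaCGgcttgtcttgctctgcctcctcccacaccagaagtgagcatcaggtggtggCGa
Mirt1: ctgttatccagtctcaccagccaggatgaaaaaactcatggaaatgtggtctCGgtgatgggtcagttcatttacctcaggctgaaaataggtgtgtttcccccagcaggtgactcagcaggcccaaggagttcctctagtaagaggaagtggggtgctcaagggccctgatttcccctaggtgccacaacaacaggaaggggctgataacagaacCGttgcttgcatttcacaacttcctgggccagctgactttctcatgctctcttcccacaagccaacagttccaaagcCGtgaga
These windows held 11, 6, 11 and 3 CG dinucleotides, against a median of 7 over the 32851 promoters of the same length. Of the 153 lincRNAs, 78 matched a RefSeq promoter and 67 of these had starts within 1000 bases of each other. Their median was 13 CG, with 10 in the 11 that rose, 6 in the 7 that fell and 15 in the 49 that did not pass. The motifs searched on both strands were TATAAA, found in 5.97% of the 67 windows and 13.6% of all promoters, the GC box GGGCGG (46.3% and 35.7%) and CCAAT (40.3% and 37.4%). The others were TGTGGT (RUNX, 17.9% and 16.8%), TGANTCA (AP-1, 10.4% and 7.81%) and CCGGAAG (ETS, 22.4% and 8.86%). The CCAAT, RUNX and AP-1 letters were in 5, 3 and 2 of the 7 windows of fallers and in 4, 2 and 1 of the 11 of risers. The TATAAA, GC box and ETS letters were in 0, 2 and 0 of the fallers' windows and in 1, 4 and 2 of the risers'. These are matches of letters in small sets, with no test.

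Libraries held 32469450 to 62201921 counts. Ezh2 itself stood at 153, 167, 164 and 159 CPM in Ezh2-deficient replicates 1 to 4 and at 268, 332, 288, 234 and 360.3 CPM in WT replicates 1 to 5, a fall of 0.88 ± 0.11 on the log2 scale (SE; edgeR adjusted p = 0.000363). No value overlapped between the groups, and a count over the whole gene does not show the deleted exons apart from the rest. A score over 23 hypoxia-response genes was high in Ezh2-deficient replicates 1 and 4 and WT replicates 1, 2 and 4, and low in the other 4 libraries, so both kinds are in both groups. The CD8 T cell marker Cd8a ranged from 0.361 to 79.8 CPM in Ezh2-deficient and from 1.98 to 97.5 CPM in WT libraries. Treg markers were present in every library (Foxp3 1293 to 1968 CPM), and of the 6 markers Foxp3 passed as higher (0.30, edgeR adjusted p = 0.0313), while Cd4 was lower in every Ezh2-deficient than in any WT library and did not pass (-0.19, edgeR adjusted p = 0.0644). Their summed level was 9475 to 10638 CPM in Ezh2-deficient and 8675 to 9475 CPM in WT libraries. Of the 6 myeloid markers, Itgam and Adgre1 passed as higher, with a summed level of 19.96 to 27.6 CPM in Ezh2-deficient and 8.86 to 17.3 CPM in WT libraries. Lyz2, Cd14, Csf1r and Clec9a were at most 0.476 CPM in any library and were not tested. Of these, Cd14 went the other way without overlap, at 0 to 0.0282 CPM in Ezh2-deficient and 0.101 to 0.476 CPM in WT libraries. Of the 5 erythroid markers, Hba-a1 passed as higher (summed level 5.41 to 19.4 against 2.17 to 7.63 CPM), with Hba-a2, Hbb-bs and Alas2 at most 0.0564 CPM. Of the 6 B cell markers, Cd79a passed as lower (summed level of the 5 tested 12.6 to 19.4 against 18.4 to 21.3 CPM), and of the 3 NK cell markers Ncr1 and Klra8 were at 0. The part of these cells in the lincRNA results was not tested, and in bulk RNA fewer cells of a type cannot be told apart from less RNA per cell.

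More lincRNAs were higher than lower in Ezh2-deficient Tregs. Of the 153, 32 rose (20.9%, against 13.1% of all 13685 genes tested) and 11 fell (7.19%, against 8.80% of all genes), and 110 did not pass. Together 43 passed (28.1%), where 21.9% of all genes and 23.4% of the 12027 protein-coding genes did. The median log2 fold change, Ezh2-deficient over WT, was 0.18 over the lincRNAs and 0.00 over all genes. The upper quartile was 0.57 for the lincRNAs and 0.27 for all genes, whereas the lower quartile was -0.22 for each. The values of the groups did not overlap for 42 lincRNAs (27.5%, against 21.2% of all genes). These calls are edgeR's quasi-likelihood test with Benjamini-Hochberg adjustment over all genes at 0.05.

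**Figure D1:**
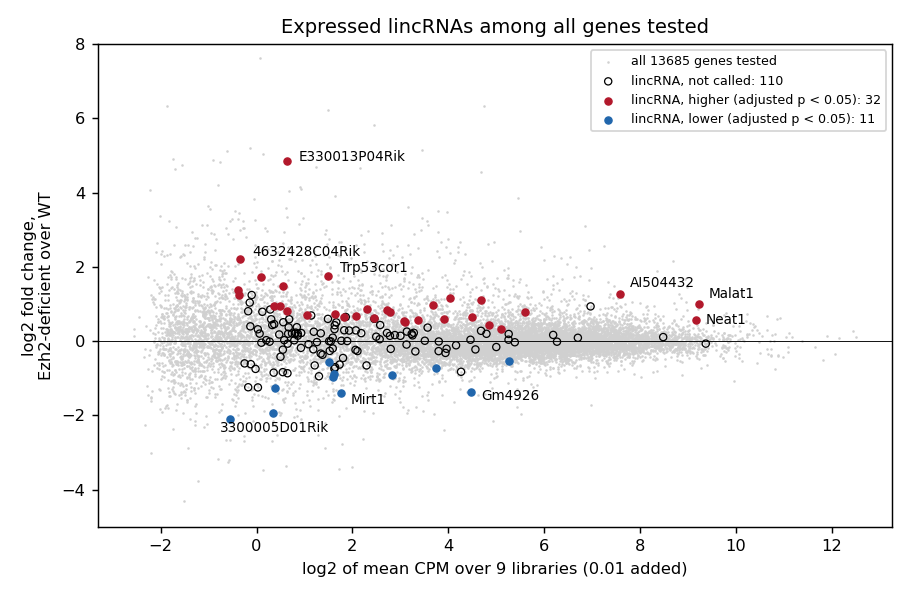
Log2 fold change (vertical axis, Ezh2-deficient over WT) against the log2 of the mean CPM over 9 libraries (horizontal axis) for all 13685 genes tested (grey) and the 153 lincRNAs, with 32 that rose in red, 11 that fell in blue and 110 that did not pass as open circles. E330013P04Rik stands apart at 4.84, and Malat1 and Neat1 are the most abundant lincRNAs that rose.

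How a lincRNA reached the 1 CPM limit bears on these counts. The 127 that reached it in both groups included 24 that rose (18.9%) and 8 that fell (6.30%), with a median of 0.15. Most of their changes were small: 18 of the 24 rises and 6 of the 8 falls reached 1.5-fold, 5 and 2 reached 2-fold, and 0 reached 4-fold. For the 16 that reached it only in Ezh2-deficient and the 10 only in WT libraries the limit itself favoured a difference. Of these 8 rose and 3 fell, among them the 3 called lincRNAs past 4-fold, and those named below are described with this stated. Just inside the limit were Gm11579 (0.624 CPM in Ezh2-deficient and 1.002 in WT, unscaled CPM) and 3300005D01Rik (0.221 and 1.031), and just outside it were C230035I16Rik (0.680 and 0.995) and Gm10827 (0.782 and 0.993). Another 90 tested autosomal lincRNAs were under the limit, of which 2 were higher and 2 lower, where 13.1% of all genes, at any level, rose and 8.8% fell.

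The lincRNAs were expressed at low levels. Their mean CPM over the 9 libraries ran from 0.668 to 663 with a median of 3.09, against a median of 33.7 for protein-coding genes, on a scale that is not per length. Per kilobase of exon the median was 1.72 CPM. The coefficient of variation within a group had a median of 20.4% in Ezh2-deficient and 21.2% in WT libraries, against 13.2% and 14.3% over all genes. Among the 127 that reached the limit in both groups, 3 of the 44 below 3 CPM rose and 1 fell, from 3 to 10 CPM 9 of 46 rose and 4 fell, and from 10 CPM upwards 12 of 37 rose and 3 fell. Shares over all genes of the same level were not computed, so a trend with level cannot be called particular to lincRNAs. Summed over the 153, the level was 4220, 3584, 4597 and 4981 CPM in Ezh2-deficient replicates 1 to 4 and 3379, 3256, 3503, 3278 and 3332 CPM in WT replicates 1 to 5. The sum was higher in all 4 Ezh2-deficient libraries than in any WT library.

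A few lincRNAs made up most of that sum: Gm42418, Malat1, Neat1 and 1700020I14Rik together held 58.0% of it. Per kilobase the order was led by Gm42418 (362 CPM per kb), AW112010 (90.7), Mir142hg (88.1), Malat1 (86.3), Gm26532 (70.0) and 1700020I14Rik (43.1). Gm42418 is listed by RefSeq as a sequence related to 18S ribosomal RNA, and its level followed no group: it ran from 462 to 799.8 CPM in Ezh2-deficient and from 462 to 1102 CPM in WT libraries (log2 fold change -0.07 ± 0.24, edgeR adjusted p = 0.871). 1700020I14Rik, known as Cyrano, which directs the decay of a microRNA, stood at 373 ± 23.4 CPM (SD, n = 4) in Ezh2-deficient and 346 ± 33.7 CPM (SD, n = 5) in WT libraries and did not pass (edgeR adjusted p = 0.379). AU020206, of no known function here, stood at 108 ± 12.3 and 101 ± 14.8 CPM and did not pass either (edgeR adjusted p = 0.609). Gm17767 was at 173, 136, 162 and 210.1 CPM in Ezh2-deficient and at 91.8, 99.9, 32.7, 114 and 107 CPM in WT libraries. Its groups did not overlap, and its difference of 0.93 ± 0.32 did not pass (edgeR adjusted p = 0.0657).

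**Figure D2:**
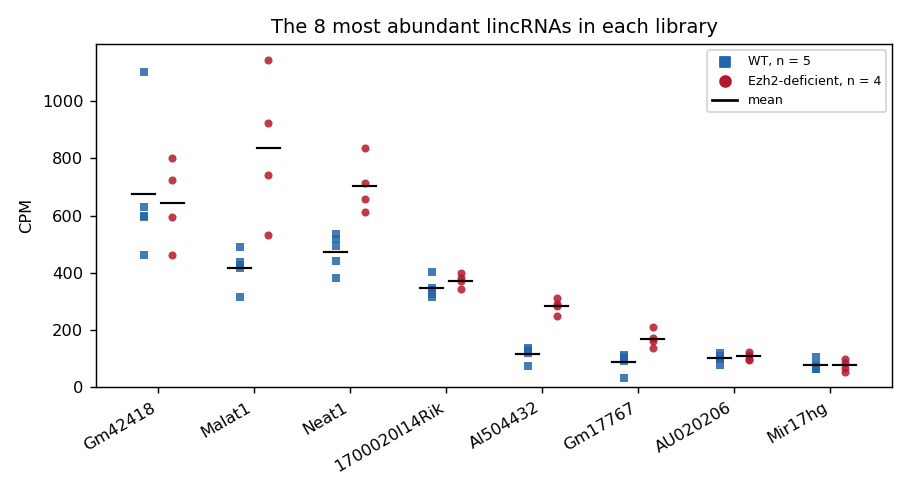
CPM (vertical axis, linear, from 0) of the 8 lincRNAs with the highest mean CPM in each of 5 WT libraries (blue squares) and 4 Ezh2-deficient libraries (red circles), with black bars for group means. Malat1, Neat1 and AI504432 rose, while the groups overlap for Gm42418, 1700020I14Rik, AU020206 and Mir17hg.

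Both nuclear-body lincRNAs rose. Malat1, a nuclear RNA that gathers in speckles rich in splicing factors, stood at 741, 532, 923 and 1144 CPM in Ezh2-deficient replicates 1 to 4 and at 436, 426, 418, 316 and 489.8 CPM in WT replicates 1 to 5. Every Ezh2-deficient library was above every WT library, and Ezh2-deficient replicate 4 was the highest. The rise was 1.001 ± 0.19 on the log2 scale (SE; edgeR adjusted p = 0.00459). Neat1, the scaffold of paraspeckles, stood at 712, 614, 658 and 836 CPM against 494, 441, 383, 518 and 536 CPM, again without overlap. Its rise was 0.57 ± 0.12 (edgeR adjusted p = 0.00498). For both, these are counts over the whole gene from polyadenylated RNA. They do not show isoforms apart or cover RNA without a poly(A) tail, and nuclear bodies were not measured. Malat1 (chr19:5795690-5802672) and Neat1 (chr19:5824708-5845478) are neighbours on the same strand. Frmd8, the protein-coding gene nearest to Neat1, did not pass (-0.21, edgeR adjusted p = 0.199). Among the libraries with a high hypoxia score the log2 difference was 1.26 for Malat1 and 0.67 for Neat1, and among those with a low score 0.65 and 0.44.

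Of 18 proteins listed as parts of paraspeckles, 1 rose and 1 fell by edgeR, where 13.1% of all genes rose and 8.8% fell. Of the 18, 8 were at an unadjusted p under 0.05 in either direction, and the median log2 fold change was 0.04. Zc3h6, a zinc finger protein, rose by 0.69 (25.1 against 15.6 CPM, edgeR adjusted p = 0.00504) and Fam98a fell by 0.31 (44.1 against 54.6 CPM, edgeR adjusted p = 0.0353). Of the core proteins, Pspc1 was at 93.5 against 78.5 CPM without overlap and did not pass (0.25, edgeR adjusted p = 0.0581), and neither did Nono (-0.04) or Sfpq (0.06). The nuclear RNA exosome and its adaptors, which degrade nuclear noncoding RNA, had 1 higher and 3 lower of 20 by edgeR, beside the same shares of all genes. Of the 20, 7 were at an unadjusted p under 0.05, and the median was -0.17. For neither list is there a share of all genes at that unadjusted p to set beside these counts. Zcchc7, an adaptor subunit, rose by 0.55 (119.6 against 81.9 CPM, edgeR adjusted p = 0.00393). The exosome core subunits Exosc8 (138 against 176 CPM), Exosc1 (17.8 against 26.0 CPM) and Exosc3 (36.6 against 44.0 CPM) fell by 0.35, 0.54 and 0.27 (edgeR adjusted p = 0.00233, 0.0267 and 0.0346).

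The snoRNA hosts did not pass in either direction. These transcripts carry snoRNAs, guides of ribosomal RNA modification, in their introns, and their spliced remainder is a target of nonsense-mediated decay. Of the 20 hosts listed, 4 were expressed lincRNAs by the annotation, and 0 of the 4 passed in edgeR or reached an unadjusted p of 0.05 (median log2 fold change -0.06). Snhg12 was at 13.5 ± 2.09 against 16.8 ± 2.99 CPM (-0.32, edgeR adjusted p = 0.150), Snhg6 at 17.1 ± 1.40 against 18.5 ± 2.17 CPM (-0.11, 0.5), Snhg20 at 8.45 ± 0.967 against 7.65 ± 1.09 CPM (0.14, 0.523) and Epb41l4aos at 3.71 ± 0.606 against 3.69 ± 1.06 CPM (0.00, 0.998). The groups overlapped for each. Beside the adjusted calls of this paragraph, 13.1% of all genes rose and 8.8% fell. The counts at an unadjusted p under 0.05 have no share over all genes to set beside them. Of 19 nonsense-mediated decay factors, 0 rose and 1 fell by edgeR, with 6 at an unadjusted p under 0.05 in either direction (median -0.10). The 1 that fell was the translation termination factor Etf1 (-0.21, edgeR adjusted p = 0.0385). Of 15 proteins of snoRNA particles, 0 rose and 2 fell by edgeR, with 8 at an unadjusted p under 0.05 (median -0.31): Ruvbl2, an assembly helicase, at 50.2 against 75.6 CPM (-0.59, edgeR adjusted p = 0.0193), and Gar1, a core protein of H/ACA particles, at 36.4 against 49.7 CPM (-0.45, edgeR adjusted p = 0.0443).

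Of the 9 microRNA-holding lincRNAs, 2 rose and 0 fell, where 13.1% of all genes rose, and 1 of the 2 reached the 1 CPM limit only through the Ezh2-deficient group. Mir155hg, the host of miR-155, stood at 17.3, 21.7, 21.5 and 10.1 CPM in Ezh2-deficient replicates 1 to 4 and at 15.1, 9.41, 7.63, 7.62 and 5.33 CPM in WT replicates 1 to 5. The groups overlapped, with Ezh2-deficient replicate 4 below WT replicate 1. The rise was 0.96 ± 0.30 (edgeR adjusted p = 0.0389), and it was among the less stable calls: 11 of 22 alternatives kept it. In the libraries with a low hypoxia score the difference was 1.71, and in those with a high score 0.34. A430106G13Rik, which holds miR-181b-1 was picked after its values were seen and is the one that reached the limit only in Ezh2-deficient libraries, was at 1.97, 0.434, 0.873 and 1.33 CPM against 0.372, 0.339, 0.258, 0.556 and 0.655 CPM. Its rise was 1.38 ± 0.45 (edgeR adjusted p = 0.0445), the groups overlapped, and 10 of 21 alternatives kept it. Mir17hg, the host of the miR-17-92 cluster, stood at 98.4, 67.8, 85.3 and 55.3 against 107, 73.3, 78.4, 64.1 and 64.7 CPM. Its groups covered nearly the same range (-0.02 ± 0.18, edgeR adjusted p = 0.964). Mir142hg, whose microRNAs mark blood cells, stood at 17.8, 29.98, 19.1 and 19.8 against 23.9, 25.02, 32.02, 26.3 and 19.4 CPM and did not pass (-0.22 ± 0.17, edgeR adjusted p = 0.368). The let-7 host 6720427I07Rik (9.65 against 8.08 CPM, edgeR adjusted p = 0.155) and the miR-191 and miR-425 host 4833445I07Rik (1.62 against 3.13 CPM, edgeR adjusted p = 0.0846), both also picked afterwards, did not pass.

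Of the 8 other lincRNAs with a studied function, 2 rose, 2 fell and 4 did not pass, where 13.1% of all genes rose and 8.8% fell. Trp53cor1 (lincRNA-p21; chr17:29057430-29079179), a target of p53 that lies upstream of the cell cycle inhibitor Cdkn1a, stood at 2.51, 5.39, 6.86 and 3.59 CPM in Ezh2-deficient and at 1.03, 1.30, 1.18, 1.96 and 1.35 CPM in WT libraries. The groups did not overlap, and the Ezh2-deficient libraries with a low hypoxia score, replicates 2 and 3, were the highest. The rise was 1.75 ± 0.30 (edgeR adjusted p = 0.00202), with 2.24 among low-score and 1.10 among high-score libraries. Cdkn1a rose as well, from 124 ± 26.2 to 252 ± 33.3 CPM (1.03 ± 0.16, edgeR adjusted p = 0.00108). Pvt1 (chr15:62037986-62378096), a long locus downstream of Myc, stood at 25.5, 29.0, 35.5 and 22.8 against 16.97, 15.1, 18.2, 19.3 and 20.8 CPM. It rose by 0.64 ± 0.14 without overlap (edgeR adjusted p = 0.00671), while Myc, at 143 ± 12.3 and 187 ± 36.9 CPM, did not pass (-0.38, edgeR adjusted p = 0.0599).

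Gm14005, known as Morrbid, which controls the lifespan of short-lived myeloid cells by restraining the neighbouring cell-death gene Bcl2l11 (Bim), went the other way. It stood at 5.38, 4.32, 4.00 and 5.25 CPM in Ezh2-deficient and at 8.10, 8.95, 4.42, 12.2 and 10.7 CPM in WT libraries, with WT replicate 3 inside the Ezh2-deficient range. It fell by 0.90 ± 0.25 (edgeR adjusted p = 0.0234). The call was kept in 17 of 22 alternatives (edgeR, DESeq2 or limma adjusted p 0.0021 to 0.266) and ended without Ezh2-deficient replicate 2, Ezh2-deficient replicate 3 or WT replicate 4, in the low-score libraries and without the library with the most Cd8a in each group. Bcl2l11, on the opposite strand 15772 bases away, stood at 196, 173, 216 and 125 against 46.0, 46.7, 49.3, 55.7 and 64.0 CPM. It rose by 1.76 ± 0.15 (edgeR adjusted p = 3.45e-05), the only called neighbour of opposite sign among the 43 lincRNAs that passed. Gm14005 spans chr2:128178319-128502765 and overlaps 4 other annotated noncoding genes, so its count may hold some of theirs.

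Mirt1 (chr19:53443230-53464796), first described in heart muscle after infarction, stood at 1.64, 2.37, 1.26 and 1.87 against 2.55, 6.97, 3.67, 5.82 and 4.47 CPM. It fell by 1.38 ± 0.30 (edgeR adjusted p = 0.00759), and the groups did not overlap, though WT replicate 1 came close to Ezh2-deficient replicate 2. 4833407H14Rik, which lies within Mirt1 on the other strand, stood at 0.254, 0.137, 0.602 and 0.927 against 0.913, 2.53, 1.49, 2.78 and 1.66 CPM and fell by 1.93 ± 0.52 (edgeR adjusted p = 0.0201). It reached the 1 CPM limit only through the WT group, and its call ended without Ezh2-deficient replicate 1. Whether strand was used in counting is not given in the sources used here. The pair may share reads. Lockd, beside the cell cycle inhibitor Cdkn1b, was at 30.1 ± 2.99 against 33.6 ± 2.37 CPM (-0.16, edgeR adjusted p = 0.241). 2900097C17Rik, known as Norad, which binds Pumilio proteins, was at 7.15 ± 0.737 against 6.13 ± 0.649 CPM (0.22, edgeR adjusted p = 0.288). AW112010, an inflammation-induced transcript, was at 77.6 ± 29.3 against 69.2 ± 12.8 CPM (0.17, edgeR adjusted p = 0.620). None of these 3 passed, and each had overlapping groups.

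Among lincRNAs known by clone names, E330013P04Rik (chr19:60144675-60162591) was near silent in WT cells. It stood at 4.37, 3.27, 3.46 and 2.19 CPM in Ezh2-deficient replicates 1 to 4 and at 0, 0.0617, 0, 0.185 and 0.299 CPM in WT replicates 1 to 5, or 548 counts in all against 25. Its rise was 4.84 ± 0.70 on the log2 scale (edgeR adjusted p = 0.00082), the highest fold of the 153. Like 4632428C04Rik and C030034L19Rik, it reached the 1 CPM limit only through the Ezh2-deficient group. It overlaps no other annotated gene, and Fam204a, 35995 bases away, did not pass (0.35, edgeR adjusted p = 0.0864). 4632428C04Rik stood at 0.958, 1.48, 2.14 and 0.959 against 0.186, 0.216, 0.373, 0.265 and 0.449 CPM and rose by 2.20 ± 0.39 (edgeR adjusted p = 0.00239). Its nearest protein-coding gene, the Notch target Hes1, was under the filter on low counts and was not tested. C030034L19Rik stood at 1.66, 1.19, 2.14 and 1.95 against 0.423, 0.494, 0.344, 0.688 and 0.673 CPM and rose by 1.72 ± 0.31 (edgeR adjusted p = 0.00275). It overlaps the zinc finger gene Zfp704 on the other strand, which itself went from 0.850 ± 0.359 to 4.15 ± 2.45 CPM (2.28, edgeR adjusted p = 0.00314).

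The other risers described here were taken by smallest adjusted p and moved by 0.77 to 1.27 on the log2 scale. Gm26532, 1300002E11Rik and Gm28875 are abundant clone-named risers not taken by p but picked after their values were seen. Gm26532 (63.3 against 36.3 CPM) rose by 0.80 (edgeR adjusted p = 0.0353). Its groups overlapped, and the difference was 0.34 in high-score and 1.24 in low-score libraries. 1300002E11Rik rose by 0.32 (38.7 against 31.0 CPM, edgeR adjusted p = 0.0424), also with overlap. Gm28875 rose by 0.44 (33.9 against 24.9 CPM, edgeR adjusted p = 0.0451). Each of these calls was kept in 10 of 22 alternatives. AI504432 (chr3:107039504-107054347) lies 1434 bases downstream of the potassium channel gene Kcna3 on the same strand. It stood at 284, 248, 313 and 292 CPM in Ezh2-deficient and at 136, 128, 76.3, 119 and 132 CPM in WT libraries. The gap between the groups was wider than either range, and the rise was 1.27 ± 0.15 (edgeR adjusted p = 0.000217). Gm15675, 1836 bases downstream of the complement regulator Cd55 on the same strand, stood at 23.9, 20.9, 22.7 and 27.7 against 11.9, 8.64, 9.96, 11.1 and 11.7 CPM and rose by 1.16 ± 0.13 (edgeR adjusted p = 0.000117). These were the only called lincRNAs that passed in all 22 alternatives. Kcna3 rose by 0.88 and Cd55 by 0.89 (edgeR adjusted p = 0.00143 and 0.00112). Whether the count of either lincRNA holds reads of the gene beside it was not tested. 9330175E14Rik, which overlaps Nlrc5, the activator of MHC class I genes, stood at 34.8, 30.4, 34.4 and 46.2 against 22.02, 16.5, 9.47, 18.996 and 17.1 CPM. It rose by 1.11 ± 0.20 (edgeR adjusted p = 0.00324), and Nlrc5 rose by 0.94 (388 ± 19.4 against 202 ± 57.5 CPM, edgeR adjusted p = 0.00935). C030034I22Rik was at 8.70 ± 0.456 against 4.85 ± 0.581 CPM (0.84 ± 0.14, edgeR adjusted p = 0.0017). Lppos, antisense to the start of the focal adhesion gene Lpp, was at 8.97 ± 0.950 against 5.25 ± 0.513 CPM (0.77 ± 0.14, edgeR adjusted p = 0.00275), and Lpp rose by 1.07 (edgeR adjusted p = 4.53e-05).

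**Figure D3:**
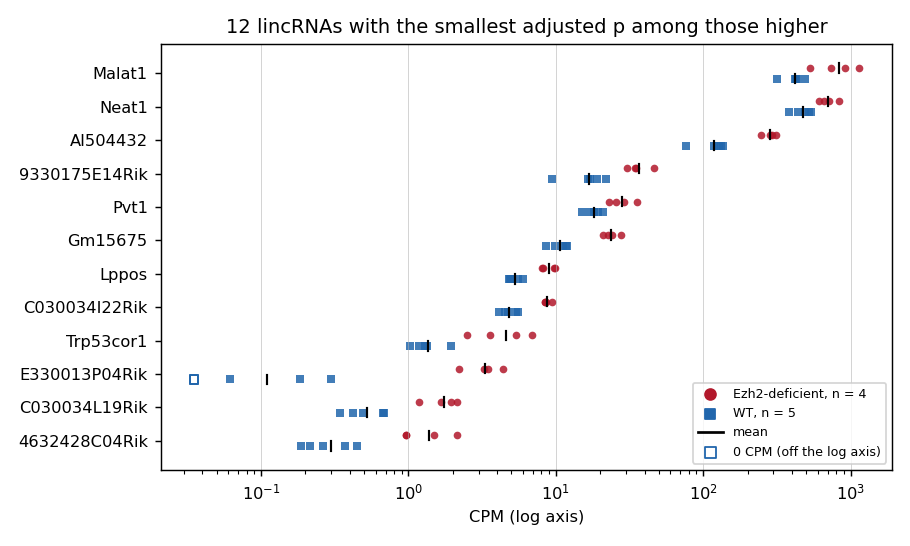
CPM on a log axis (horizontal) of the 12 lincRNAs with the smallest adjusted p among the 32 that rose, in 4 Ezh2-deficient libraries (red circles) and 5 WT libraries (blue squares), with black bars for group means and open squares for 0 CPM. The groups do not overlap for any of the 12.

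The lincRNAs that fell were mostly of low level. Gm4926, the most abundant after 2310001H17Rik, stood at 13.5, 10.9, 5.60 and 17.2 CPM in Ezh2-deficient and at 45.8, 39.1, 26.2, 22.2 and 20.1 CPM in WT libraries. It fell by 1.37 ± 0.35 without overlap (edgeR adjusted p = 0.0199). 4933404O12Rik stood at 8.06, 11.01, 12.1 and 8.24 against 15.004, 14.7, 19.4, 14.6 and 17.6 CPM and fell by 0.73 ± 0.15 (edgeR adjusted p = 0.00659). Its neighbour Ift22, a gene of transport within cilia, fell by 1.09 (3.61 ± 0.550 against 7.70 ± 1.34 CPM, edgeR adjusted p = 0.0016), the only called neighbour that fell with a lincRNA that fell. 2310001H17Rik stood at 28.2, 25.03, 30.6 and 40.7 against 40.3, 48.6, 48.2, 52.0 and 35.1 CPM and fell by 0.52 ± 0.15 with overlapping groups (edgeR adjusted p = 0.028). Its call ended when any of Ezh2-deficient replicates 1, 2 and 3 or WT replicate 4 was left out.

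The largest fall by fold was that of 3300005D01Rik, which stood at 0.0564, 0.183, 0.151 and 0.504 against 0.829, 0.833, 0.459, 1.11 and 1.89 CPM. It fell by 2.11 ± 0.57 (edgeR adjusted p = 0.0214), and it reached the 1 CPM limit only through the WT group, as did Gm13842. Its call ended without Ezh2-deficient replicate 3. Gm13842 was at 0.721 ± 0.273 against 1.77 ± 0.453 CPM (-1.27 ± 0.33, edgeR adjusted p = 0.018) and Gm11707 at 1.96 ± 0.379 against 3.86 ± 1.06 CPM (-0.98 ± 0.25, edgeR adjusted p = 0.0151). Gm14230, beside the homeobox gene Tgif2, was at 2.08 ± 0.560 against 3.87 ± 0.769 CPM (-0.90 ± 0.24, edgeR adjusted p = 0.0214). 2810429I04Rik was at 2.24 ± 0.201 against 3.30 ± 0.313 CPM (-0.56 ± 0.18, edgeR adjusted p = 0.0451), and 9 of 22 alternatives kept its call. The groups did not overlap for these last 4.

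**Figure D4:**
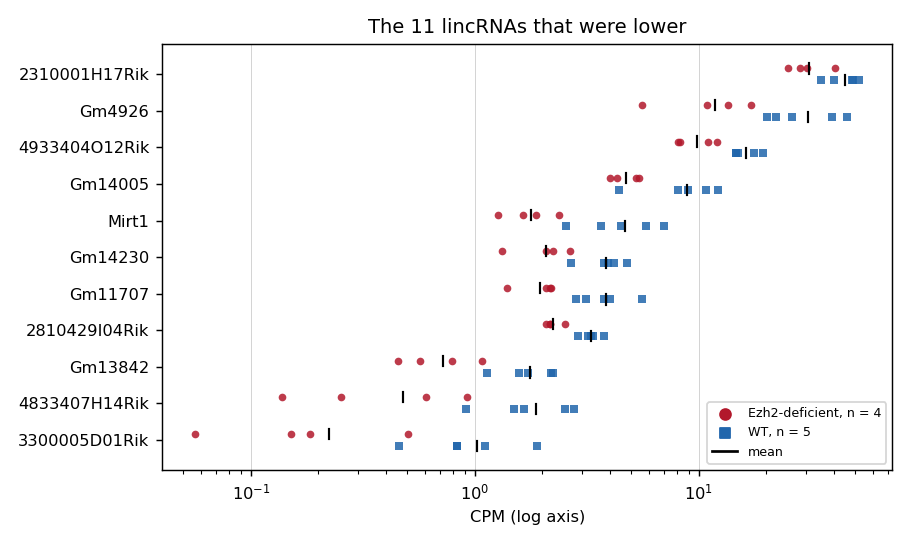
CPM on a log axis (horizontal) of the 11 lincRNAs that fell, in 4 Ezh2-deficient libraries (red circles) and 5 WT libraries (blue squares), with black bars for group means. The groups overlap for 2310001H17Rik, Gm14005, 4833407H14Rik and 3300005D01Rik.

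Of the protein-coding genes beside lincRNAs that rose, some rose and none fell. The nearest protein-coding gene was tested for 128 of the 153. Of the 29 such neighbours of lincRNAs that rose, 12 rose, 0 fell and 17 did not pass, with a median of 0.37 and a positive sign in 24. Over all protein-coding genes 13.7% rose and 9.69% fell. For the 22 whose lincRNA reached the 1 CPM limit in both groups, 8 rose and 0 fell, with a median of 0.30. The difference between these sets of neighbours was not tested. Of the 10 neighbours of lincRNAs that fell, 1 rose, 1 fell and 8 did not pass, with a median of 0.01. Of the 89 neighbours of lincRNAs that did not pass, 12 rose and 4 fell, with a median of 0.01. Across the 128 pairs the log2 fold changes had a Pearson r of 0.36 and a Spearman rho of 0.41, as a description, since both values of a pair come from the same libraries and pairs are not replicates. Pearson's r was 0.54 for the 28 pairs whose gene bodies overlap, 0.51 for the 55 with a gap of up to 5000 bases and 0.23 for the 45 farther apart. Spearman's rho for the same sets differed less, at 0.49, 0.41 and 0.35. In overlapping pairs reads of the protein-coding gene may be counted in part for the lincRNA. Among pairs that do not overlap, D730003I15Rik, picked after its values were seen, rose by 0.74 (a call that ended without Ezh2-deficient replicate 3) with the stress-response factor Atf3 (1.63) at 6415 bases.

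**Figure D5:**
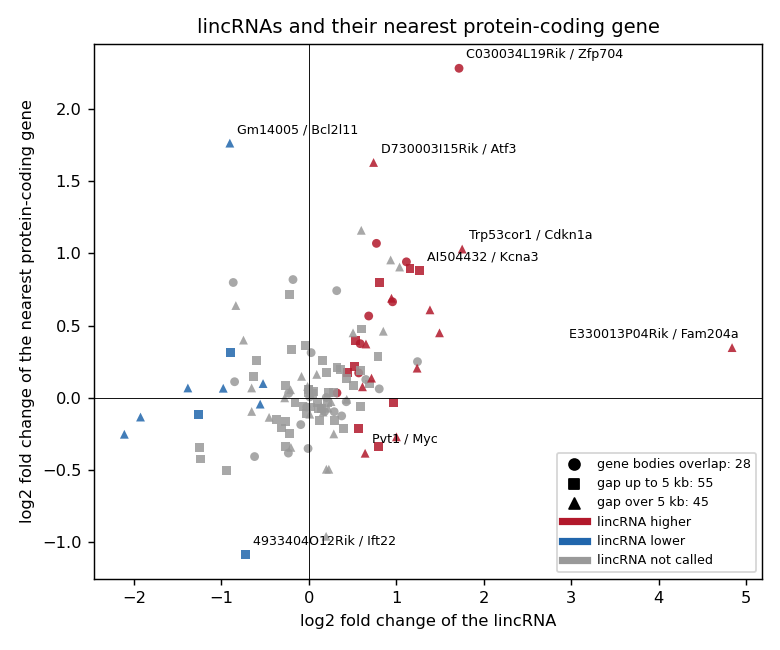
Log2 fold change of the nearest protein-coding gene (vertical axis) against that of the lincRNA (horizontal axis) for 128 pairs, with circles for 28 overlapping pairs, squares for 55 with a gap of up to 5 kb and triangles for 45 farther apart, coloured by the call of the lincRNA. Gm14005 with Bcl2l11 lies alone at the upper left.

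Overlap with other genes touched many of these counts. Of the 153 lincRNAs, 61 overlapped another annotated gene, 43 with exon on exon, and 32 overlapped a protein-coding gene. Of the 92 that overlapped none, 14 rose (15.2%, against 13.1% of all genes) and 7 fell (7.61%, against 8.80%), so the share of rises was nearer the background there than over all 153. Calls also leaned on single libraries: without Ezh2-deficient replicate 1 or replicate 3 the rises numbered 19 (12.4%, against 9.29% of all genes) and 17 (11.1%, against 8.35%), and without the latter the falls numbered 7 (4.58%, against 5.72%). The libraries with a high hypoxia score alone gave 14 rises (9.15%, against 7.62% of all genes) and 4 falls (2.61%, against 4.98%). Those with a low score alone gave 5 rises (3.27%, against 3.08%) and 0 falls (1.06% of all genes). At an unadjusted p under 0.05 by edgeR 28 lincRNAs were higher and 15 lower there, with no share over all genes to set beside these counts.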

How the data were processed

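The deposited counts, 1 whole number per gene and library, had not been normalized by the authors. The submitters' processing notes name STAR and GRCm38. Which tool counted reads, with which strand setting and annotation release, is not stated in these sources, which leaves counts of overlapping or antisense genes uncertain. Per the labels' protocols, libraries were made with a stranded mRNA kit. Of the identifiers, 42462 were found in GENCODE M21, which gave symbols, biotypes, positions and exon lengths.

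A count was seen for 22839 genes, and 13685 were left by the default filter of edgeR. They were fitted with trimmed mean of M-values scaling and the robust quasi-likelihood F-test (edgeR 4.0.16, R 4.3.3; two-sided), with Benjamini-Hochberg adjustment over all genes and a threshold of 0.05. The biological coefficient of variation was 0.206. Levels are CPM with those factors, as mean ± SD (Ezh2-deficient n = 4, WT n = 5); the membership limit used plain CPM. Errors of log2 fold changes are SE. No 2 libraries agreed within sampling noise (lowest chi-square per degree of freedom 23.6), so each counted as 1 replicate, and p-values measure the spread between these cultures. Reads carry no molecular identifiers, so low counts have at least counting error. The script was checked on simulated data.

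The lincRNAs and lists were chosen with earlier results of these data known. Named were the members of the functional lists, the 12 with the smallest adjusted p in each direction (11 fell), the 8 with the highest mean CPM, 2 on each side of the limit, the nearest protein-coding genes of the first 2 sets by p, and up to 4 genes of each other list. The result of 1 gene is not reported here. Sequences are RefSeq's. Alternatives were 3 other scalings, other filters, DESeq2 1.42.0, limma-voom 3.58.1, a replicate block, a hypoxia score or sex as covariate, other membership limits and leaving out libraries.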

Additional observations from a re-analysis of the deposited data

Results flagged for a closer look

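In 8 of the 78 groups examined, those of the 38 named lincRNAs and of Ezh2, 1 library lay far from the rest of its group by Dixon's ratio. Chance flags about 1 in 20 groups, and all values are CPM. WT replicate 3 accounted for 3 of the 8: AI504432 was at 76.3 where the other WT libraries ran from 119 to 136, Gm17767 at 32.7 where they ran from 91.8 to 114, and Gm42418 at 1102 where they ran from 462 to 629. Ezh2-deficient replicate 2 was above its group for C030034I22Rik (9.38, others 8.42 to 8.52) and Mir142hg (29.98, others 17.8 to 19.8). Ezh2-deficient replicate 4 was below its group for Gm11707 (1.40, others 2.08 to 2.20) and above it for Gm11579 (1.64, others 0.241 to 0.388). WT replicate 5 was above its group for 2900097C17Rik (7.26, others 5.58 to 5.99).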

How the results depend on the processing

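Against 32 rises, 11 falls and a median log2 fold change of 0.18, DESeq2 called 20 falls, the libraries with a high hypoxia score alone gave 14 rises and 4 falls, and those with a low score alone gave 5 rises, 0 falls and a median of 0.065. That low-score edgeR fit had 4 libraries, and 28 lincRNAs were higher and 15 lower at an unadjusted p under 0.05, counts that lack a share over all genes. All genes lost calls in these subsets too: 7.62% rose and 4.98% fell among high-score and 3.08% and 1.06% among low-score libraries. Leaving out the library with the most Cd8a in each group left 19 rises, and the 92 lincRNAs that overlap no other gene had 14 rises and 7 falls. Leaving out 1 library at a time gave 17 to 28 rises, 7 to 15 falls and a median of 0.11 to 0.18. The lowest counts of each came without Ezh2-deficient replicate 3, and the lowest median came without Ezh2-deficient replicate 4. The subsets test fewer libraries or lincRNAs, and beyond that the cause was not tested. Every other scaling, filter, tool, covariate and membership limit left these counts within 1.5 times, and no scaling moved the median of all genes by more than 0.03. The hypoxia score, Cd8a and sex alternatives were chosen after seeing the data.

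Labels share replicate numbers between the groups and do not say whether the numbers pair the samples. The deviations of same-numbered libraries correlated at 0.153, -0.0834, 0.114 and 0.187. Those of differently numbered libraries correlated at -0.254 to 0.319, so these values do not settle whether the samples were paired. With the number as a replicate block the fit called 24 rises and 12 falls, with a median of 0.15, and Ezh2 fell by 0.79. WT replicate 5 is alone in its block and adds nothing to the group difference there. Not every library correlated best with its own number.

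Of 834 values of single named lincRNAs under an alternative, 730 kept their direction and their side of the threshold, 66 no longer passed, 8 newly passed and 30 changed sign. The changes of sign were in 7 lincRNAs that did not pass and lay near 0. Epb41l4aos took -0.013 with relative log expression, -0.015 with upper-quartile and -0.03025 with total-count scaling, -0.018 with no filter, -0.014 with DESeq2, -0.0075 with limma-voom, -0.0092 with the replicate block, -0.023 with the hypoxia and -0.024 with the sex covariate, -0.093 in the high-score libraries and -0.16 to 0.095 with 1 library left out. AW112010 took -0.15 in the low-score libraries, -0.033 without the Cd8a-high libraries and -0.15 to 0.26 with 1 library left out. Mir17hg took 0.0698 in the low-score libraries, 0.052 without the Cd8a-high libraries and -0.18 to 0.12 with 1 left out. 1700020I14Rik took -0.037 in the low-score, Gm11579 0.18 and Gm42418 0.12 in the high-score libraries. With 1 library left out Gm42418 ran from -0.21 to 0.15 and AU020206 from -0.015 to 0.14. The causes were not tested. For lincRNAs near 1 CPM, counting error limits the precision.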
